A study of Rattus norvegicus with 96 samples.

Results

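The genes described here are the protein components of the cytosolic ribosome, chosen by symbol: Rpl or Rps followed by a digit, and Rplp0, Rplp1, Rplp2 and Rpsa, without the Rps6k kinases, pseudogene symbols and the mitochondrial Mrpl and Mrps genes. The rule found 38 genes among the 14217 with a probe set of their own on the array. Of these members, 33 belong to the large (60S) subunit and 5 to the small (40S) subunit (Rps3a, Rps15a, Rpsa, Rps27l and Rps4y2). The 38 include 6 near copies of other ribosomal protein genes (Rpl26l1, Rpl39l1, Rpl3l, Rpl7l1, Rps27l and Rps4y2). A further 30 probe sets carry the symbols of several genes, at least 1 of them ribosomal. They are given only as a group, since their signal cannot be assigned to 1 gene. With only 5 small-subunit members, most small-subunit proteins are not analysed here.

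RNA was measured on Affymetrix rat arrays in alcohol-preferring (P) rats, which were selected over generations for drinking. All groups were P rats, so the line's genetic background was shared by ethanol and water arrays. The ethanol groups drank ethanol in limited-access sessions, named binge drinking in the series title, while the water groups received no ethanol. One region sampled was the central amygdala (CeA), an output nucleus involved in stress and fear, and the other was the accumbens shell (NAc shell), a striatal reward region, each taken 1, 6 or 24 h after the last drinking episode. At 1, 6 and 24 h there were 11, 10 and 10 ethanol with 6, 5 and 6 water arrays for the CeA, and 10, 10 and 11 ethanol with 7, 5 and 5 water arrays for the NAc shell. Values are on the log2 scale, 1 value per array, and each difference is the ethanol mean minus the water mean of the same region and hour. The labels do not say that the arrays came from separate rats, so the p values measure only the spread between arrays.

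The cytosolic ribosome translates nuclear messenger RNA. Its small subunit reads the message and its large subunit joins the amino acids, with proteins that line the exit tunnel, bind the 5S RNA, bridge the subunits or form the stalk that recruits elongation factors. Cells usually make these proteins in matched amounts. Most of their messages begin with a 5' terminal oligopyrimidine (TOP) tract, a C followed by a run of C and T bases, through which the kinase complex mTORC1 controls their translation when growth signals or nutrients change. In brain, ribosomes lie in cell bodies and in dendrites, where local protein synthesis is needed for lasting synaptic change.

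The TOP tract is the sequence feature that unites the family, so the starts of members on which the results turn are shown in both forms. RefSeq promoter entries (build GRCr8) matched 34 of the 38 members, and Rpl27, Rpl7, Rpl23a and Rpl30 had no entry. The motif searched was a C at the annotated start followed by at least 4 bases that are each C or T, on the gene's own strand. It was present in 11 of the 34 members (32.4%), with tracts of 5 to 12 bases, and in 881 of 33469 promoters of all genes (2.63%). Each line gives 25 bases before and 25 bases from the annotated start, 5' to 3', with the tract in capitals. The first 4 members have the tract and the other 4 do not.
Rpl19: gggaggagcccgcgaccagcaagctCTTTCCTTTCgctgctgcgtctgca
Rpl35: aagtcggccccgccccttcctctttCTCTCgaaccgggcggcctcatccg
Rpl28: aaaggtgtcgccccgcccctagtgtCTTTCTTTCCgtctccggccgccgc
Rplp0: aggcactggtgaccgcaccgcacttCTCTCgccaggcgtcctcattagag
Rpl11: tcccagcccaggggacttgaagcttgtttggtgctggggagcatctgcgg
Rpl6: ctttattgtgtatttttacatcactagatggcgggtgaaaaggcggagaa
Rpl26: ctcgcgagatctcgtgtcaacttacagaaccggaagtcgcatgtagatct
Rps15a: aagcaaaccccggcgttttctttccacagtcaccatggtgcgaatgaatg
These windows lie at chr10:83519039-83519088 on the plus strand for Rpl19, chr3:43165897-43165946 on the minus strand for Rpl35, chr1:78083508-78083557 on the minus strand for Rpl28 and chr12:46718366-46718415 on the minus strand for Rplp0. The windows of Rpl11 (chr5:153560778-153560827), Rpl6 (chr12:41011666-41011715) and Rps15a (chr1:181860260-181860309) are on the minus strand, and that of Rpl26 (chr10:54109667-54109716) is on the plus strand. Anywhere in the same 50 bases, the motif occurred in 15 of the 23 members without it at the start and in 17365 of all 33469 promoters (51.9%). The absence of a tract at the annotated start says only that these letters are not at that position in this entry.

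In the CeA 33 members, and in the NAc shell 32, were bright enough to be tested, having a probe set mean above the 40th percentile of the region (log2 6.96 and 7.09). Rpl30, Rpl39l1, Rpl3l, Rps27l and Rps4y2 were below this limit in both regions, and Rpl28 in the NAc shell as well. The number of arrays limits the precision. The Gapdh 3' minus 5' difference, which is larger where RNA is shorter, averaged 2.91 (SD 0.53, n = 48) for the CeA and 1.81 (SD 0.25, n = 48) for the NAc shell. In the NAc shell 5 arrays, and in the CeA 4, correlated poorly with the rest of their region, and the 4 in the CeA all lay in the fourth of 4 runs of title numbers. Among markers of CeA neurons, Sst, Cartpt, Crh, Nts and Prkcd passed the filter in the CeA and Dlk1 and Calcrl did not. All 14 striatal projection neuron markers passed in the NAc shell, with a summed level of 15.87 to 17.12 per array.

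No ribosomal protein passed the threshold, an adjusted p under 0.05 by limma with Benjamini-Hochberg adjustment over all probe sets tested, in any ethanol comparison of either region. The share of all probe sets that passed was also 0% in each. What varied was the side of 0 on which the members lay, and this is described by region and hour. The members rose and fell together from array to array, so they are not independent observations. In the NAc shell, 13 of 48 arrays had at least 80% of members above their group mean, and 18 had at most 20%. For the CeA these numbers were 8 and 5 of 48. Counts of members above or below 0, set beside the share of all probe sets, are therefore descriptions and not tests. Since the tissue is bulk, fewer cells of a type and less RNA per cell cannot be told apart.

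At 1 h after the last episode, CeA ribosomal protein messages lay on both sides of 0. Of 33 members, 15 were above and 18 below, with a median of -0.01, where 44.5% of all probe sets were below 0. Only Rpl7a, a large-subunit protein, reached an unadjusted p under 0.05, against 5.43% of all probe sets. Its level was 13.47, 13.61 and 13.70 (lowest, median and highest) on 11 ethanol arrays and 13.39, 13.55 and 13.66 on 6 water arrays. The groups overlapped over most of their range. The difference was 0.09 ± 0.04 (SE, adjusted p = 0.902). The next smallest p values belonged to Rpl23a, at the exit tunnel, with -0.15 ± 0.09 (adjusted p = 0.904), to Rpl4, also of the tunnel, with 0.11 ± 0.07, and to Rpl23 with 0.06 ± 0.04 (both adjusted p = 0.912). The median was so near 0 that leaving out a single array turned its sign in 5 of 48 cases, with a range of -0.04 to 0.02.

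In the CeA at 6 h the members lay almost all below 0. The ethanol mean was lower for 31 of 33, with a median of -0.10, where 53.9% of all probe sets were below 0 and the median of all was -0.02. The 2 above 0 were Rpl28 (0.22 ± 0.13) and Rpl3, a protein next to the catalytic centre (0.02 ± 0.05). The probe sets named for several genes gave a like count, with 29 of 30 below 0 and a median of -0.11. Rpl27 and Rpl26 reached an unadjusted p under 0.05, 2 of 33 members against 8.22% of all probe sets.

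By role, the median 6 h difference lay below 0 in each class of the CeA. The stalk protein Rplp0, on which the elongation factors dock, had -0.19 ± 0.11. The 5S-binding proteins Rpl5 and Rpl11, which also bind Mdm2 when ribosome assembly fails, had -0.14 ± 0.08 and -0.07 ± 0.06. All 3 members at the bridges between subunits were below 0 (median -0.17), as were all 5 at the exit tunnel (median -0.13) and all 3 of the small subunit (median -0.11). Of the other large-subunit members, 15 of 17 were below 0, with a median of -0.08. None of these classes held a member that passed.

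The member with the largest 6 h difference in the CeA was Rpl27 (Entrez gene 64306), a large-subunit protein. Its level on the 10 ethanol arrays was 11.81 at the lowest, 12.04 at the median and 12.31 at the highest (mean 12.05, SD 0.14). On the 5 water arrays it was 11.98, 12.25, 12.29, 12.30 and 12.81 (mean 12.33, SD 0.30). The ethanol median lay below 4 of the 5 water arrays, yet the groups overlapped from 11.98 to 12.31. The difference was -0.28 ± 0.11 (95% interval -0.51 to -0.05, adjusted p = 0.571), or 1.21-fold lower.

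Rpl26, an exit-tunnel protein, had 12.98, 13.30 and 13.48 (lowest, median and highest) on the CeA ethanol arrays at 6 h. Its water arrays were at 13.26, 13.41, 13.43, 13.48 and 13.95. The groups overlapped, and 1 water array stood above all others. The difference was -0.24 ± 0.11 (95% interval -0.46 to -0.02, adjusted p = 0.571). Rpl35, at the tunnel, and Rpl19, at a bridge between the subunits, followed with -0.13 ± 0.06 and -0.18 ± 0.09 (both adjusted p = 0.571).

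The small-subunit protein Rps15a gave the same arrangement in the CeA at 6 h, with 12.08, 12.23 and 12.51 (lowest, median and highest) in ethanol and 12.24, 12.30, 12.40, 12.52 and 12.85 in water. Its difference was -0.20 ± 0.11. Rplp0 had 11.43, 11.72 and 12.01 in ethanol and 11.60, 11.63, 11.89, 11.98 and 12.50 in water. In Rpl27, Rpl26, Rps15a and Rplp0 alike, the same water array, replicate 16, exceeded every ethanol array. Rpl28 ran the other way, with 6.76, 7.20 and 7.49 in ethanol against 6.53, 6.74, 6.95, 7.05 and 7.56 in water, at a level near the filter limit.

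The 6 h difference in the CeA rested in part on 1 water array, replicate 16, which is among the 4 arrays of low correlation. The member level of an array is the median over the members of its value minus the water mean of the same region and hour. On the 5 water arrays it was -0.10, -0.06, -0.04, -0.02 and 0.21. On the 10 ethanol arrays it was -0.19, -0.11 and 0.03 (lowest, median and highest), below 0 on 9. Without water replicate 16 the median difference of the members was -0.05, with 28 of 33 below 0, and without all 4 low-correlation arrays it was -0.05, with 27 below 0. Without replicate 16 alone, Rpl27 stood at -0.16, Rpl26 at -0.13, Rpl35 at -0.08 and Rpl19 at -0.09. Without water replicate 17, also of low correlation, the same members stood at -0.36, -0.30, -0.16 and -0.25. Within each of the 4 runs of title numbers, 21, 30, 22 and 26 of 33 were below 0, with medians of -0.03, -0.07, -0.04 and -0.16. At 6 h, runs 1 to 3 each held a single water array (replicates 2, 6 and 13), and run 1 a single ethanol array. The water arrays of run 4 were replicates 16 and 17, so the run medians are not separate support for the direction.

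Markers of other cells lay off 0 in the same comparison, with 0 of 13 oligodendrocyte markers above 0 (median -0.43) and a summed level of 15.92 to 17.05 in ethanol and 15.90 to 17.00 in water. Microglial markers were above 0 in 0 of 10 (median -0.20, summed level 13.96 to 14.66 in ethanol and 14.01 to 14.67 in water), vessel markers in 0 of 12 (-0.18, 13.04 to 13.84 and 13.38 to 13.79) and meningeal markers in 0 of 6 (-0.43, 10.99 to 12.55 and 11.37 to 13.06). Markers of CeA neurons lay above 0 in 7 of 7 (median 0.55), with a summed level of 13.51 to 14.88 in ethanol and 13.23 to 14.21 in water. The general neuronal markers had a summed level of 16.28 to 16.57 in ethanol (mean 16.44) and 16.42 to 16.58 in water (mean 16.52). For astrocyte markers it was 16.21 to 16.72 (mean 16.46) and 16.37 to 16.63 (mean 16.54). For striatal projection neuron markers it was 15.03 to 15.87 (mean 15.34) and 14.39 to 15.71 (mean 15). The water values of all these lists include replicates 16 and 17, both of low correlation. No marker passed, and the part of these cells in the ribosomal difference was not tested. The defining oligodendrocyte genes Mbp and Mog were above the filter, which was applied to the mean of the region and not to each group. The Gapdh 3' minus 5' difference was 2.95 (SD 0.55) in ethanol and 2.93 (SD 0.57) in water, 0.02 apart, and the same difference for beta-actin was higher in ethanol by 0.07. With the Gapdh difference as a covariate the members' median was -0.10, with 31 of 33 below 0.

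**Figure D1:**
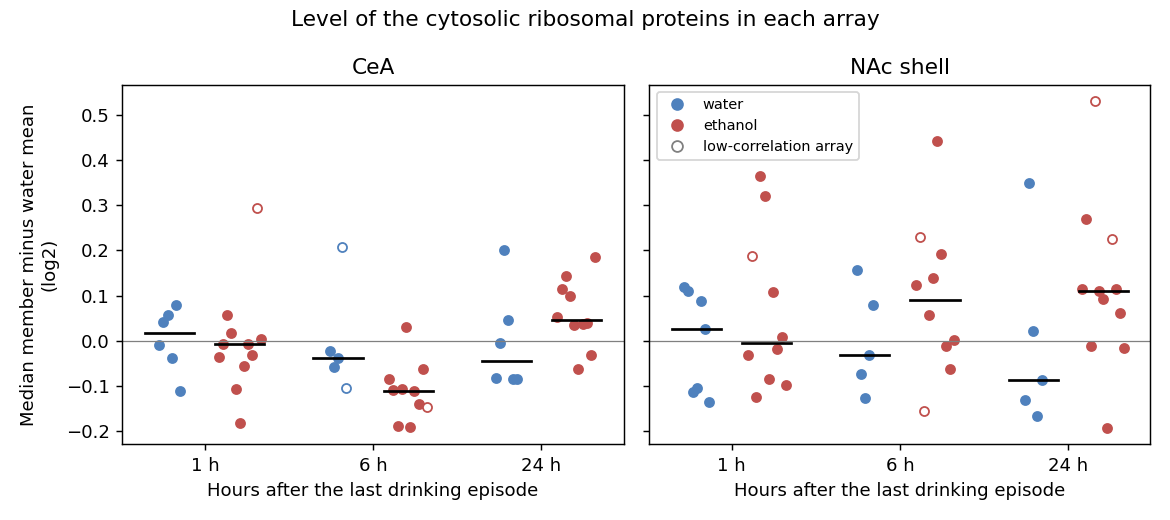
Member level of each array (log2, median of the tested ribosomal proteins minus the water mean of the same region and hour), by region, hour and treatment. The highest CeA water array at 6 h lay at 0.21 while the other 4 lay between -0.10 and -0.02, and ethanol and water arrays overlapped in all 6 pairs.

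By 24 h the CeA members lay mostly above 0. Of 33, 28 had a higher ethanol mean, with a median of 0.06, where 48.8% of all probe sets were above 0. The several-gene probe sets gave 28 of 30 above 0 (median 0.08). Only Rpl11 reached an unadjusted p under 0.05, against 0.655% of all probe sets. Rpl11 had 13.04, 13.16 and 13.30 (lowest, median and highest) on 10 ethanol arrays and 12.87, 13.02 and 13.15 on 6 water arrays. The ethanol median lay just above the highest water array, and the ranges overlapped between 13.04 and 13.15. The difference was 0.14 ± 0.06 (95% interval 0.03 to 0.26, adjusted p = 1.000).

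Rpl4, a tunnel protein, had 13.15, 13.26 and 13.48 in the CeA at 24 h in ethanol and 12.97, 13.18 and 13.28 in water, a difference of 0.13 ± 0.07. Rpl3 had 0.09 ± 0.04 and the small-subunit protein Rps3a 0.08 ± 0.05, and the adjusted p of all 3 was 1.000. The members below 0 were Rpl12, Rpl26l1, Rpl28, Rpl39 and Rpl7l1, with -0.03, -0.08, -0.06, -0.07 and -0.05, so both tested near copies were among them. The member level was above 0 on 8 of 10 ethanol arrays (lowest -0.06, median 0.05, highest 0.19) and on 2 of 6 water arrays (-0.08, -0.04 and 0.20). Without water replicate 8 the median difference was 0.10, and without water replicate 15 it was 0.04. Within run 2 of the title numbers it was -0.05, with 11 of 33 above 0. The Gapdh 3' minus 5' difference was lower by 0.10 in ethanol (2.84 against 2.94), and with it as a covariate the members' median was 0.06.

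Averaged over the 3 hours, the CeA members stood close to 0, since the hours lay on opposite sides. Of 33, 12 were above 0 and the median was -0.02, where 50.7% of all probe sets were below 0. An unadjusted p under 0.05 was reached by 0 members, against 8.16% of all probe sets. The smallest adjusted p values belonged to Rpl3 (0.05 ± 0.03, 0.643), Rpl4 (0.07 ± 0.04, 0.652), Rpl26 (-0.10 ± 0.06, 0.670) and Rpl23a (-0.08 ± 0.05, 0.700). The median was -0.0014 without water replicate 8 at 24 h and 0.0038 without water replicate 16 at 6 h. With the title runs as a block, 48 of all probe sets passed (0.258%), no member was among them, and the members' median was -0.03 with 24 of 33 below 0.

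Members in the NAc shell lay above 0 at each hour. At 1 h, 31 of 32 had a higher ethanol mean, with a median of 0.06, where 52% of all probe sets were above 0. An unadjusted p under 0.05 was reached by 0 members, against 1.88% of all probe sets. The stalk protein Rplp0 had the smallest p value. Its level was 10.80, 11.34 and 11.54 (lowest, median and highest) on 10 ethanol arrays and 10.80, 11.12 and 11.39 on 7 water arrays. The water range lay inside the ethanol range, and the difference was 0.17 ± 0.11 (adjusted p = 1.000). Rpl3, Rpl7a and Rpl7l1 followed with 0.10 ± 0.08, 0.09 ± 0.07 and 0.08 ± 0.07, and Rpl26l1 was the member below 0. The median was 0.02 without ethanol replicate 35, and 0.03 without ethanol replicate 36, water replicate 20 or water replicate 24. The member level was above 0 on 5 of 10 ethanol arrays (lowest -0.13, median -0.01, highest 0.36) and on 4 of 7 water arrays (-0.14, 0.03 and 0.12). The array levels thus did not separate the groups, and their ethanol median lay below their water median.

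At 6 h in the NAc shell, 27 of 32 members lay above 0 with a median of 0.10, where 53% of all probe sets did. Rpl11 and Rpl6 reached an unadjusted p under 0.05, against 5.23% of all probe sets. Rpl11 had 13.17, 13.40 and 13.63 (lowest, median and highest) on 10 ethanol arrays and 13.04, 13.15, 13.15, 13.17 and 13.38 on 5 water arrays. Of the water arrays, 3 lay below every ethanol array, 1 lay level with the lowest of them and 1 lay well inside their range. The difference was 0.20 ± 0.09 (adjusted p = 0.899). Rpl6, a large-subunit protein, had 13.22, 13.37 and 13.54 in ethanol and 13.05, 13.13, 13.23, 13.25 and 13.36 in water, a difference of 0.18 ± 0.08 (adjusted p = 0.899).

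Rps15a and Rpl34 followed at 6 h in the NAc shell with 0.24 ± 0.15 and 0.20 ± 0.13 (both adjusted p = 0.899). Rps15a had 12.32, 12.71 and 13.31 in ethanol and 12.19, 12.39, 12.45, 12.63 and 12.70 in water, and the groups overlapped. Rpl27, the member with the largest difference in the CeA, had 0.24 ± 0.17 here. Its level was 12.55, 12.90 and 13.57 in ethanol and 12.42, 12.54, 12.55, 12.98 and 13.09 in water. The ethanol arrays spanned the larger range, and no gap separated the groups. The members below 0 were Rpl23, Rpl26l1, Rpl39, Rpl4 and Rpl7a, each by less than 0.07 on the log2 scale. The member level was above 0 on 7 of 10 ethanol arrays (-0.16, 0.09 and 0.44) and on 2 of 5 water arrays (-0.13, -0.07, -0.03, 0.08 and 0.16). Without ethanol replicate 47 the median difference was 0.06.

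At 24 h in the NAc shell, 30 of 32 members lay above 0 with a median of 0.13, where 53.8% of all probe sets did. The same 2 members, Rpl11 and Rpl6, reached an unadjusted p under 0.05, against 3.74% of all probe sets. Rpl11 (Entrez gene 362631) had 13.11, 13.38 and 13.63 (lowest, median and highest) on 11 ethanol arrays (mean 13.39, SD 0.16). The 5 water arrays were at 13.02, 13.05, 13.07 and 13.32, with the lowest at 13 (mean 13.09, SD 0.13). Of these, 4 lay below every ethanol array and 1 lay among them. The difference was 0.30 ± 0.09 (95% interval 0.13 to 0.47), or 1.23-fold, with an unadjusted p of 0.000976 and an adjusted p of 0.999.

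Rpl6 had 13.12, 13.38 and 13.55 in the NAc shell at 24 h in ethanol and 12.95, 13.05, 13.22, 13.30 and 13.30 in water. Only 2 water arrays lay below the ethanol range. The difference was 0.20 ± 0.08, followed by Rpl18 with 0.13 ± 0.07 and Rpl7 with 0.20 ± 0.11 (all adjusted p = 0.999). Both 5S-binding proteins were above 0 (median 0.21), as were the 3 bridge proteins (0.17), the 3 small-subunit proteins (0.15), Rplp0 (0.15) and 16 of 16 other large-subunit proteins (0.13). At the exit tunnel 4 of 5 were above 0. Rpl39, a small tunnel protein, was at -0.06 ± 0.08 and the near copy Rpl26l1 at -0.03 ± 0.08. The member level was above 0 on 8 of 11 ethanol arrays (-0.19, 0.11 and 0.53) and on 2 of 5 water arrays (-0.17, -0.13, -0.09, 0.02 and 0.35). The median difference was 0.20 without water replicate 31, and 0.08 without ethanol replicate 55 or water replicate 33. Without the 5 low-correlation arrays of the region it was 0.06, with 27 of 32 above 0.

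Set side by side over the 3 hours, the Rpl11 difference in the NAc shell came with a level ethanol side. The ethanol means were 13.39, 13.38 and 13.39 at 1, 6 and 24 h (SD 0.18, 0.15 and 0.16). The water means were 13.33, 13.18 and 13.09 (SD 0.17, 0.12 and 0.13). The ethanol groups thus differed by 0.01 at most, while each later water group had a lower mean. Rpl6 showed the same order, with 13.40, 13.38 and 13.36 in ethanol and 13.35, 13.20 and 13.16 in water. The differences of Rpl11 between hours in water had an unadjusted p of 0.0426 and an adjusted p of 1.000 by the limma F test, and did not pass. Rpl11 and Rpl6 were named for the p values of their ethanol differences, which use these same water arrays. The falling water means are therefore not separate support. Leaving out single arrays, the 24 h difference of Rpl11 ran from 0.28 to 0.36 and that of Rpl6 from 0.14 to 0.23, all above 0. In the CeA, Rpl11 means were 13.14, 13.11 and 13.18 in ethanol and 13.11, 13.19 and 13.03 in water, within 1 SD of each other except at 24 h.

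**Figure D2:**
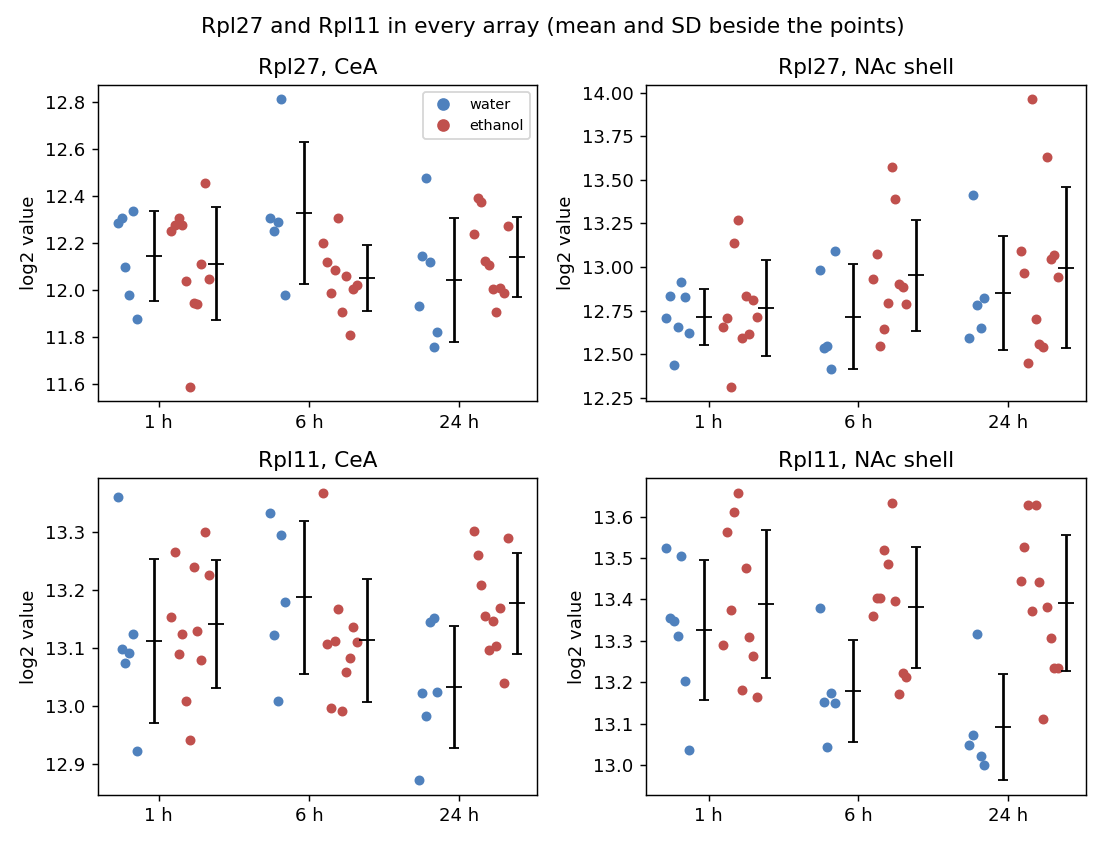
Levels (log2) of Rpl27 and Rpl11 on each array, by region, hour and treatment, with group means. Rpl27 had a mean of 12.05 in ethanol and 12.33 in water in the CeA at 6 h, and Rpl11 had 13.39 and 13.09 in the NAc shell at 24 h, with overlapping arrays in both.

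Averaged over the 3 hours, 30 of 32 members lay above 0 in the NAc shell, with a median of 0.09, where 53.4% of all probe sets did. The several-gene probe sets gave 28 of 30 above 0 (median 0.09). An unadjusted p under 0.05 was reached by 7 members, against 11.1% of all probe sets. Rpl11 had 0.19 ± 0.05 (95% interval 0.09 to 0.28, unadjusted p = 0.000298, adjusted p = 0.206). Rpl6 had 0.14 ± 0.04 (adjusted p = 0.255), Rpl21 0.20 ± 0.09 (0.412) and Rpl41, the shortest ribosomal protein, 0.14 ± 0.07 (0.423). The other 3 with an unadjusted p under 0.05 were the near copy Rpl7l1 (0.09 ± 0.04), Rpl18 (0.08 ± 0.04) and Rpl22 (0.16 ± 0.08). Rpl26l1 (-0.01 ± 0.04) and Rpl39 (-0.04 ± 0.05) lay below 0. Rpl21 shows how wide the array spread was beside such differences: at 6 h it had 12.42, 12.77 and 13.43 (lowest, median and highest) in ethanol and a water range of 12.37 to 12.92. Rpl41 had 12.86, 13.23 and 13.86 at 24 h in ethanol and a water range of 12.81 to 13.62. In both, the highest water array lay above the ethanol median. The member level was above 0 on 20 of 31 ethanol arrays and on 8 of 17 water arrays.

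Beside the NAc shell differences stand values of other cells and of RNA length. Of the neuronal markers, 12 of 12 lay above 0 over the 3 hours (median 0.08), with a summed level of 16.14 to 16.73 in ethanol and 16.21 to 16.51 in water at 24 h. Astrocyte markers were above 0 in 11 of 11 (median 0.05), microglial markers in 8 of 9 (0.06), oligodendrocyte markers in 5 of 13 (-0.01), vessel markers in 4 of 12 (-0.03) and striatal markers in 8 of 14 (0.02). No marker passed. The Gapdh 3' minus 5' difference was higher in ethanol by 0.11 at 1 h and lower by 0.19 at 6 h (1.81 against 2.00) and by 0.18 at 24 h (1.82 against 2.01). The same difference for beta-actin was higher in ethanol at each hour, by 0.08, 0.17 and 0.11, so the 2 controls lay on opposite sides of 0 at 6 h and 24 h. With the Gapdh difference as a covariate, the members' medians were 0.02, 0.16 and 0.17 at 1, 6 and 24 h and 0.12 over all hours, with 23, 29, 31 and 31 of 32 above 0, and no member passed. No fit used the beta-actin difference, and the part of cell makeup was not tested.

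A second probe set bears on 5 of the members. In the NAc shell over the 3 hours, the 3 probe sets of Rpsa, a small-subunit protein also known as the laminin receptor, gave 0.10 ± 0.06 (the brightest), 0.12 ± 0.07 and 0.07 ± 0.05. Those of Rpl7l1 gave 0.09 ± 0.04 and 0.07 ± 0.08. Those of Rpl7 disagreed, with 0.11 ± 0.06 for the brightest and -0.16 ± 0.08 for the other, and those of Rpl3 gave 0.08 ± 0.05 and -0.01 ± 0.04. The second probe set of Rpl14 was below the filter.

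The 2 regions were then compared by the difference of their ethanol effects, CeA minus NAc shell, in a fit of all 96 arrays that takes them as independent, because no label ties a CeA array and an NAc shell array to 1 rat. At 6 h, 30 of 32 members had a lower effect in the CeA, with a median difference of -0.23, where 54.3% of all probe sets were below 0. An unadjusted p under 0.05 was reached by 8 members, against 11.1% of all probe sets, and no member or other probe set passed (0%). Rpl11 had -0.28 ± 0.11 (adjusted p = 0.415), Rpl27 -0.52 ± 0.21 (0.422), Rps15a -0.45 ± 0.19 (0.426) and Rpl23a -0.30 ± 0.13 (0.426). For each of these 4 the CeA effect was negative and the NAc shell effect positive. Rpl6 (-0.24 ± 0.11), Rpl34 (-0.33 ± 0.15), Rpl19 (-0.38 ± 0.18) and Rpl35 (-0.25 ± 0.12) followed. The CeA side at 6 h rested in part on water replicate 16, an array of low correlation. Without that array the median CeA effect of the members was -0.05 in place of -0.10. Region differences of single members were not refitted without it. Normalization appears to have been done within each region, although no label states this. Cell markers differed between the regions by the same measure, with 0 of 13 oligodendrocyte markers (median -0.42), 0 of 9 microglial markers (-0.31), 6 of 6 markers of CeA neurons (0.49) and 11 of 14 striatal markers (0.28) above 0. General neuronal markers were above 0 in 3 of 12 (median -0.12) and astrocyte markers in 1 of 11 (-0.10). Summed marker levels overlapped between ethanol and water in both regions for oligodendrocytes, microglia and CeA neurons. The part of these cell types in the ribosomal difference was not tested. Of the respiratory chain subunits 0 of 71 were above 0, with a median of -0.29, further from 0 than that of the ribosomal proteins.

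At 1 h, 25 of 32 members were lower in the CeA by this difference (median -0.07), where 48.3% of all probe sets were below 0. An unadjusted p under 0.05 was reached by 0 members, against 2.23% of all probe sets. Rpl23a had -0.23 ± 0.12, Rplp0 -0.18 ± 0.16, Rpl21 -0.21 ± 0.19 and Rpl24 -0.17 ± 0.15 (all adjusted p = 1.000). The median was -0.04 without CeA ethanol replicate 16, NAc shell ethanol replicate 35 or NAc shell ethanol replicate 36. At 24 h, 29 of 32 were below 0 (median -0.06) and 0 had an unadjusted p under 0.05, where 55.8% and 1.02% of all probe sets did. Rpl11 had -0.16 ± 0.10, Rpl6 -0.13 ± 0.10, Rpl7 -0.14 ± 0.12 and Rpl18 -0.10 ± 0.09 (all adjusted p = 1.000). There the count was 18 without CeA water replicate 8 and 19 without NAc shell ethanol replicate 55, and the median ran from -0.15 to -0.02 as single arrays were left out, lowest without NAc shell water replicate 31 and highest without NAc shell ethanol replicate 55. Over the 3 hours 31 of 32 were below 0 (median -0.13) and 7 had an unadjusted p under 0.05, where 53.4% and 9.39% of all probe sets did. Rpl11 had -0.15 ± 0.06 (adjusted p = 0.446), Rpl23a -0.17 ± 0.07 (0.467), Rpl6 -0.14 ± 0.06 (0.471) and Rpl19 -0.22 ± 0.10 (0.492).

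Time within each treatment shows what each side of the comparisons contributed. In the CeA, 30 of 33 members were higher at 6 h than at 1 h in water (median 0.07), where 57.7% of all probe sets were, and 27 of 33 were lower in ethanol (median -0.03), where 53% of all probe sets were. The 6 h water arrays include replicate 16. By 24 h, 10 of 33 were above the 1 h level in water (median -0.03), where 57.5% of all probe sets were, and 25 of 33 in ethanol (median 0.03), where 51.1% were. Among NAc shell members, 13 of 32 were higher at 6 h and 19 at 24 h in water, where 43.6% and 50.1% of all probe sets were, against 19 and 26 in ethanol, where 42% and 49% were. The smallest p values within water belonged to Rpl7a (0.13 at 6 h and 0.07 at 24 h, relative to 1 h), Rpl18 (0.16 and 0.04), Rpsa (0.15 and -0.07) and Rpl27 (0.18 and -0.10) in the CeA, all with adjusted p = 0.934. In the NAc shell they belonged to Rpl11 (-0.15 and -0.23), Rpl6 (-0.14 and -0.18), Rpl14 (-0.17 and -0.19) and Rpl39 (0.12 and 0.13), all with adjusted p = 1.000. Within ethanol they belonged to Rpl7, Rpl3, Rpl27a and Rpl24 in the CeA, with -0.05 to 0.09. Those of the NAc shell were Rpl41 (0.12 and 0.19), Rpl27 (0.19 and 0.23), Rpl26 (0.15 and 0.22) and Rpl35a (0.11 and 0.16), all with adjusted p = 0.988. The limma F test of time passed for 0 members within ethanol or water in either region, where it passed for 11 of all probe sets within ethanol in the CeA (0.0591%), 7 in the NAc shell (0.0376%) and 0% within water. The test of ethanol by time passed for 0 members and 0% of all probe sets in both regions. Its smallest p values were those of Rpl7a, Rpl35, Rpl11 and Rpl23a in the CeA (adjusted p = 0.979) and of Rpl11, Rpl6, Rpl7 and Rpl18 in the NAc shell (adjusted p = 1.000). The comparisons at 6 h and 24 h with 1 h share the 1 h arrays.

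The members varied together from array to array, more so in the NAc shell. The counts of members on a side of 0 thus hold no more independent observations than there were arrays. In the CeA, 8 of 48 arrays had at least 80% of members above the mean of their own group and 5 had at most 20%, with 3 to 31 of 33 above. For the NAc shell, 13 arrays had at least 80% and 18 at most 20%, with 0 to 32 of 32 above. The array median of the members had a within-group SD of 0.09 (CeA) and 0.17 (NAc shell), beside median differences between treatments at the single hours of -0.10 to 0.06 (CeA) and 0.06 to 0.13 (NAc shell). Title runs differed as well, with 2 of 8, 9 of 16, 3 of 16 and 6 of 8 CeA arrays above their group mean in runs 1 to 4, and a mean Gapdh 3' minus 5' difference of 2.46, 2.51, 3.45 and 3.09. The several-gene ribosomal probe sets lay on the same side of 0 as the members on 38 of 48 CeA and 45 of 48 NAc shell arrays, as did the mitochondrial ribosomal proteins on 43 and 41. Lists outside the ribosome did so as well: respiratory chain and proteasome subunits each on 37 and 38, and astrocyte markers on 33 and 35. Markers of CeA neurons did so on 19 and 24, and striatal markers on 23 in each region. Members and lists were read on the same arrays with the same normalization, so the counts are a description.

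Members differed in how far their arrays spread. In the CeA the within-group SD ran from 0.07 for Rpl23 to 0.26 for Rpl22, a large-subunit protein, with a median of 0.15. The NAc shell values ran from 0.13 for Rpl18 to 0.37 for Rpl12, a protein of the stalk base, with a median of 0.20. A member's 95% interval reached a median of 0.15, 0.16 and 0.16 to each side at 1, 6 and 24 h for the CeA, and 0.19, 0.22 and 0.21 for the NAc shell. At 6 h in the CeA the intervals of the members reached from -0.51 to 0.49, and at 24 h in the NAc shell from -0.37 to 0.54.

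Members with and without a tract at the annotated start, as in Rpl19 and Rpl26, lay on the same sides of 0. In the CeA at 6 h, 10 of 11 with the tract were below 0 (median -0.13) and 18 of 19 without it (median -0.08). Over the 3 hours in the NAc shell, 9 of 10 and 18 of 19 were above 0, with medians of 0.09 and 0.10. The difference between regions at 6 h had a median of -0.26 with the tract and -0.21 without. The difference between these classes was not tested.

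Other gene lists of protein synthesis and energy supply are given for comparison, and none of their genes passed. In the CeA at 6 h, 17 TOP-mRNA genes outside the family were above 0 in 5 (median -0.09), among them Eef1g, a subunit of elongation factor 1 (-0.16 ± 0.08). Rack1, a scaffold on the small subunit, had -0.09 ± 0.05. The same comparison put 8 of 73 mitochondrial ribosomal proteins (median -0.13), 1 of 71 respiratory chain subunits (-0.17), 5 of 35 proteasome subunits (-0.09), 13 of 45 initiation factors (-0.05), 10 of 29 mTORC1 pathway genes (-0.03) and 36 of 81 ribosome biogenesis genes (-0.02) above 0. The median of all probe sets was -0.02.

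In the NAc shell at 24 h the lists lay above 0 in 14 of 17 TOP-mRNA genes, 37 of 45 initiation factors, 60 of 81 ribosome biogenesis genes, 21 of 29 mTORC1 pathway genes, 58 of 73 mitochondrial ribosomal proteins, 70 of 72 respiratory chain subunits and 31 of 34 proteasome subunits. The last 2 had medians of 0.10 and 0.15, beside 0.13 for the ribosomal proteins. Over the 3 hours, Ubtf, a transcription factor for ribosomal RNA genes, had 0.24 ± 0.06 (adjusted p = 0.206), and Uqcrc1, a core subunit of respiratory complex III, 0.23 ± 0.05 (adjusted p = 0.200). Their adjusted p was close to that of Rpl11, the ribosomal protein with the smallest value.

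**Figure D3:**
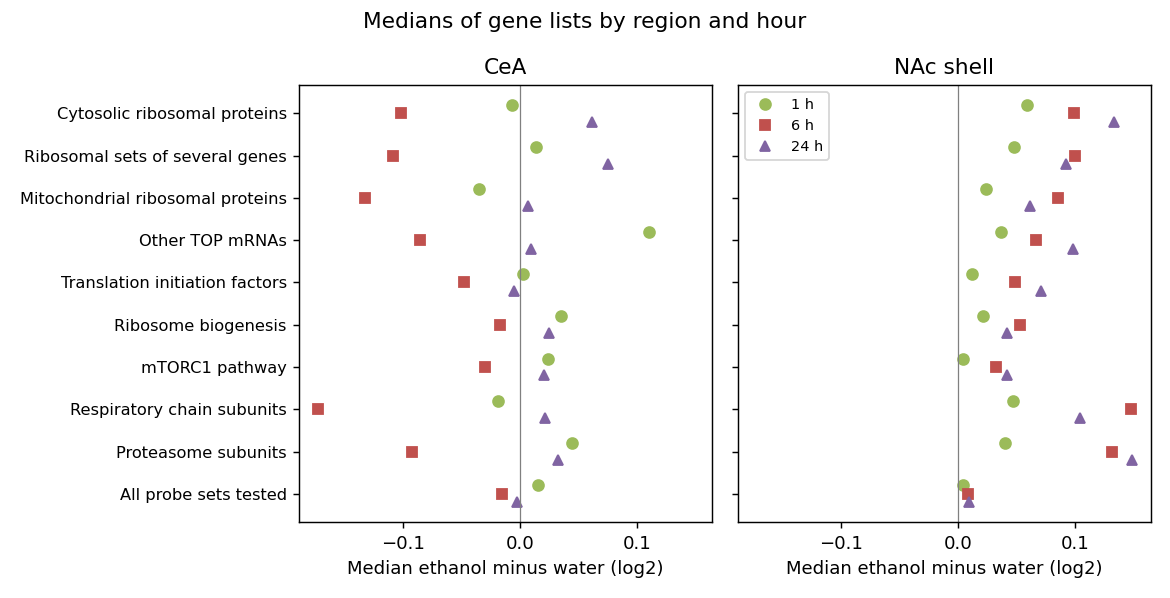
Median ethanol minus water difference (log2) of the ribosomal proteins and other gene lists, by region and hour. In the CeA at 6 h the ribosomal proteins had -0.10 and the respiratory chain -0.17, and in the NAc shell at 24 h 0.13 and 0.10.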

How the data were processed

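The values are log2 expression per probe set and array, as deposited, made by the authors with RMA (version not stated), per the submitters' processing notes. RMA gives arrays a shared distribution, which can compress folds of dim probe sets. Groups came from the labels. The 57 control probe sets were left out. Symbols of 20758 probe sets were updated by gene ID. Each gene was read by its probe set with the highest mean. The members, the gene lists and the tests were chosen with earlier results of these data known.

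Each region was fitted with limma 3.58.1 in R 4.3.3 (means of 6 groups, variance trend), over the 18625 probe sets with a mean above the 40th percentile, with Benjamini-Hochberg adjustment. Regions were compared in a joint fit of 17572 probe sets. The scripts were tested on simulated data. Named members have the 4 smallest p values of each comparison; members named by role or because they lay outside a count were chosen after their values were seen. Alternatives were the filter (none, or the 60th percentile), repeated quantile normalization, array weights, Gapdh 3' minus 5' as a covariate, probe set means, title runs as a block and separately, a replicate block, omission of low-correlation arrays and of each array. Title numbers do not pair arrays. Rps6, Rps3, Rps27a, Rplp1 and Rplp2 are not analysed here.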

Additional observations from a re-analysis of the deposited data

Results flagged for a closer look

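A search for arrays far from the others of their group covered 50 sets of values. Each set held 1 member, or the median of the members, on the arrays of 1 group. Groups of 11 arrays were not searched. The search found 3 far arrays, where chance alone gives them in about 1 in 20 independent sets. The sets shared arrays and the members were those with the smallest p values, so this rate is only a rough guide. In the NAc shell at 24 h, 1 of 5 water arrays had an Rpl11 level of 13.317, where the next was 13.072. In the CeA at 6 h, the median of the members minus the group mean was 0.207 on 1 of 5 water arrays, where the next was -0.023, and 0.141 on 1 of 10 ethanol arrays, where the next was 0.03.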

How the results depend on the processing

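No member passed an adjusted p of 0.05 by limma under any alternative tried. The smallest was 0.0904, in the NAc shell over the 3 hours with the Gapdh covariate. The fits within single CeA runs, which have few arrays, changed most. Rpl7a at 1 h was -0.0423 and Rpl35 at 6 h 0.0512 within run 1. Within run 2, Rpl4 was -0.0877 and Rpl23 -0.0325 at 1 h, Rps3a -0.0046 at 24 h and Rpl4 -0.018 over the 3 hours. These 6 values had the opposite sign to those reported. The CeA median was -0.10 at 1 h within run 3, and at 24 h 0.17 within run 1 and -0.0467 within run 2, with 11 members above 0. Over the 3 hours 13 CeA members were below 0 within run 1, where the median was 0.02 and so of opposite sign. The 6 h median of the CeA, -0.10 as reported, ran from -0.16 within run 4 to -0.03 within run 1. In the NAc shell the 1 h median was 0.02 with the Gapdh covariate and 0.03 with repeated quantile normalization or array weights, where 0.06 is reported. The 6 h median was 0.16 with the Gapdh covariate, against 0.10, and the 24 h median was 0.06 without low-correlation arrays, against 0.13. In the difference between regions at 24 h, 18 of 32 members were below 0 without the low-correlation arrays, 13 with CeA run 1 and 15 with CeA run 3, and 18 to 32 as single arrays were left out. Over all CeA probe sets and the 3 hours, 0 passed in the reported fit, 74 with array weights, 48 with runs as a block, 21 within run 1 and 2 with the Gapdh covariate or a replicate block, and 8 passed within run 1 at 6 h and at 24 h. The causes were not tested.

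With the title number as a replicate block, the members' medians at 1, 6 and 24 h and over all hours were -0.01, -0.11, 0.06 and -0.02 in the CeA and 0.05, 0.10, 0.14 and 0.10 in the NAc shell, and no member's call changed. The numbers run serially within each treatment, so 1 number can fall on different hours in ethanol and water. They were not taken as pairs. Deviations of same-numbered arrays correlated between -0.78 and 0.75 over 17 CeA numbers and between -0.46 and -0.18 over 3 in the NAc shell. Of the water arrays, 0 lay closest to their own number. The block thus tied arrays that no label relates, so the unchanged calls are not separate support. Region differences of single members, interactions and time courses were not refitted. The number of arrays and the signal above background limit these values.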
